A study of Mus musculus with 6 samples.

Results

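Connexins, a sodium channel subunit, pacemaker channels and a transcription factor of the conduction system were followed through heart RNA of desmin-null mice with and without cardiac overexpression of TNFα. The set was defined by 7 gene symbols (Gja1, Gja5, Gjc1, Scn4b, Hcn2, Hcn4 and Tbx5), and every probe set annotated to 1 of them alone was taken. It held 13 of the 45101 probe sets of the array, for 6 of the 18193 genes named there. Hcn4, a main pacemaker channel of the sinus node, was not analysed here. Expression was measured on 6 one-colour Affymetrix arrays, 3 of Des-/- and 3 of TNFαDes-/- myocardium from mice 3 months old. Both genotypes lack desmin, the main intermediate filament of heart muscle, and no wild-type heart or TNFα heart with desmin was among the arrays. Strain went with genotype, 129SV for Des-/- and mixed 129SV/C57 for TNFαDes-/- mice, and the effects of strain and of TNFα cannot be told apart. The labels call the TNFα overexpression cardiac-specific and name no promoter. They state that RNA from 3 hearts of a genotype was pooled before labelling, while the design text gives 3 mice per genotype, so the arrays of a group may be repeats of 1 pool and the p-values may cover technical spread alone.

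Gap junctions are clusters of channels, each made of connexin proteins, that let current pass from one heart muscle cell to the next. The sodium current starts the upstroke of the action potential and is tuned by beta subunits such as that of Scn4b, whereas HCN channels open on hyperpolarization and carry the pacemaker current of nodal cells. Tbx5 encodes a T-box transcription factor that atrial and conduction tissue need, and a gene it is known to drive is Gja5.

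Of the 6 genes measured, Hcn2 rose and Scn4b fell in TNFαDes-/- hearts, and Gja1, Gja5, Gjc1 and Tbx5 did not pass the test on their brightest probe set (limma, Benjamini-Hochberg adjusted p under 0.05 over 18193 genes). These 2 calls of 6 stand against 21.3% of all genes, 15.2% called higher and 6.05% called lower, and with 6 genes nothing particular to the members is read from them. The median log2 change of the 6 genes was 0.02, and that of all genes 0.04. Gja1 and Tbx5 each had another probe set that fell, so that 4 of the 13 probe sets passed (1 higher, 3 lower) when all probe sets were tested, against 14.9% of 45037 (9.94% higher, 4.93% lower). After quantile normalization the same 2 genes and the same 4 probe sets passed, where 22.5% of genes (12.0% higher, 10.4% lower) and 16.3% of probe sets did. Des-/- replicate 1 differed from Des-/- replicates 2 and 3 by an SD of 0.34 log2 over genes, against 0.16 between replicates 2 and 3. Its 99th percentile of 12.30 lay near the 12.31 to 12.34 of the TNFαDes-/- arrays, so which Des-/- arrays are the odd ones is not settled. Without Des-/- replicate 1, 3 of the 6 genes were called higher (Gja1, Gjc1 and Hcn2) and 1, Scn4b, lower. Calls rose over all genes too, to 32.0% (23.4% higher, 8.56% lower).

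The labels, the tissue and the arrays were checked first. Markers of heart muscle were bright on all 6 arrays, with mean log2 levels of 13.50 to 14.20 over 7 genes. Tnf was listed at 5.79 to 5.97 on the Des-/- and 5.73 to 6.09 on the TNFαDes-/- arrays and did not differ by the test (0.07 ± 0.12 SE, limma adjusted p = 0.746), so the transgene was not seen on its single probe set. Des read 8.33 to 8.43 on the Des-/- and 8.73 to 8.88 on the TNFαDes-/- arrays, above the array medians although both genotypes lack desmin. It was 0.39 ± 0.10 SE higher (limma adjusted p = 0.0219), and 0.22 higher after quantile normalization (limma adjusted p = 0.199). Where the Tnf or this Des probe set lies within its gene was not analysed here, so neither checks the labels. Array medians lay between 5.02 and 5.08, but their bright ends differed, with a 99th percentile of 11.77 and 11.71 on Des-/- replicates 2 and 3 against 12.30 to 12.34 on the other 4 arrays. The brightest 3639 genes therefore had a median change of 0.27 as deposited and 0.02 after quantile normalization, which puts all arrays on 1 distribution. The log2 ratio of 3′ to 5′ control probe sets differed between the groups as well, with values given with Tbx5 below. Each change below is TNFαDes-/- minus Des-/- on the log2 scale.

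The stretches before the start sites of the members that passed the test on their main probe set are given here for orientation, 250 bases each, 5′ to 3′ on the plus strand, as RefSeq has them in GRCm38.p6. Capitals mark matches to 5 motifs searched on both strands: GGTGTG for T-box factors, TNAAGTG for NKX2-5, AGATAA for GATA factors, GGGCGG for the GC box bound by SP1, and TATAAA for the TATA box. The Scn4b stretch lies at chr9:45138374-45138623 and that of Hcn2 at chr10:79716384-79716633.
Scn4b: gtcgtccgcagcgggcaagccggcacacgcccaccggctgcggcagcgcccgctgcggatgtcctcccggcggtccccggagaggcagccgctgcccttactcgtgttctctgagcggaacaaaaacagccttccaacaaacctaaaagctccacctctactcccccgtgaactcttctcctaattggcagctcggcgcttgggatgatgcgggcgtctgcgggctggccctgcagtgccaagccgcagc
Hcn2: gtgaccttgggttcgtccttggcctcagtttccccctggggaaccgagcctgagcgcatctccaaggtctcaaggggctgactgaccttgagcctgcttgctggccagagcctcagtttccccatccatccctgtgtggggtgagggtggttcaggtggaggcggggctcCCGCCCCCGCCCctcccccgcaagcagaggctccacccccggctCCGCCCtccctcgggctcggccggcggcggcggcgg
Scn4b held 0 matches, and Hcn2 held 3, all to the GC box on the minus strand, of which the first and the middle one adjoin without overlapping. The GC box was found in 32.7% of the 32851 mouse stretches of this kind, the T-box motif in 16.3%, the NKX2-5 motif in 10.1%, the GATA motif in 9.99%  the TATA box in 12.4%. G and C made up 66.0% of the Scn4b and 70.4% of the Hcn2 stretch. A match is a match of letters only.

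**Figure D1:**
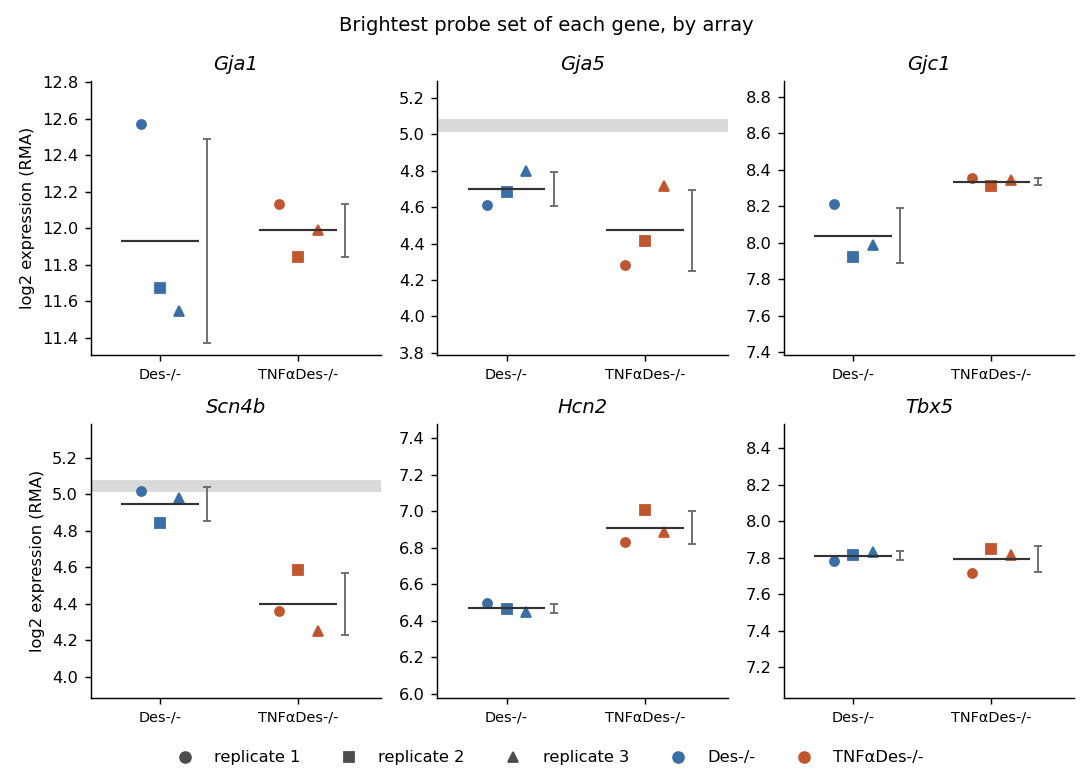
Log2 expression (RMA, as deposited) of the brightest probe set of each of the 6 genes, with 1 point per array, a line at the group mean and a bar of 1 SD to its right (n = 3). Every panel spans the same log2 range; the grey band is the range of the array medians. Hcn2 and Gjc1 have all TNFαDes-/- arrays above all Des-/- arrays and Scn4b has all below. Such a separation, in one direction or the other, was seen for 38.0% of all genes. Des-/- replicate 1 is the highest Gja1 array at 12.57.

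Hcn2, which encodes an HCN channel found in working myocardium as well as in nodal cells, read 6.50, 6.46 and 6.45 on the Des-/- arrays and 6.83, 7.01 and 6.89 on the TNFαDes-/- arrays. All TNFαDes-/- values lay above all Des-/- values, a separation that 38.0% of all genes showed in one direction or the other. The rise was 1.36-fold (log2 change 0.44 ± 0.10 SE, limma adjusted p = 0.0125), from 6.47 ± 0.03 to 6.91 ± 0.09 (SD, n = 3), with an unadjusted 95% interval of 0.22 to 0.66. It was 0.38 after quantile normalization (limma adjusted p = 0.0212). The call was lost without Des-/- replicate 2 (0.44, limma adjusted p = 0.0529) or replicate 3 (0.43, adjusted p = 0.0549), and without both (0.41, adjusted p = 0.127).

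Scn4b encodes a beta subunit of the voltage-gated sodium channel that shapes channel gating and resurgent current. Its single probe set read 5.02, 4.84 and 4.98 on the Des-/- arrays and 4.36, 4.58 and 4.25 on the TNFαDes-/- arrays. Each TNFαDes-/- value was below each Des-/- value, while 38.0% of all genes separated in one direction or the other. The change was -0.55 (SE 0.12, limma adjusted p = 0.0117; 95% interval -0.81 to -0.28), and -0.52 after quantile normalization (limma adjusted p = 0.00743). The probe set lay below the median of the array on 6 of 6 arrays, at percentiles 33.7 to 49.7, and without detection calls it is not shown to be above background, so no fold is given. Without TNFαDes-/- replicate 1 the call ended (-0.53, limma adjusted p = 0.0553), as it did without TNFαDes-/- replicate 3 (-0.47, adjusted p = 0.0545) and without Des-/- replicates 2 and 3 together (-0.62, adjusted p = 0.0758).

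Gja1 encodes the main connexin of ventricular muscle. Its brightest probe set (1437992_x_at) read 12.57, 11.67 and 11.54 on the Des-/- arrays and 12.13, 11.84 and 11.99 on the TNFαDes-/- arrays. The groups overlapped, because Des-/- replicate 1 was above every other array while the remaining Des-/- arrays were below every TNFαDes-/- array. The change was 0.06 ± 0.24 (SE; limma adjusted p = 0.896), with a 95% interval of -0.49 to 0.61. Its direction was not settled: it was 0.38 (limma adjusted p = 0.0379) without Des-/- replicate 1, 0.39 (adjusted p = 0.0292) with array weights, and -0.30 (adjusted p = 0.122) after quantile normalization, where all TNFαDes-/- arrays lay below all Des-/- arrays. Without Des-/- replicate 1, 6 of the 7 heart muscle markers were also called higher (median 0.62), against 0 of 7 with all arrays (median 0.40). After quantile normalization 0 were called higher and 2 lower, Tnni3 (-0.30) and Ryr2 (-0.39), at a median of -0.09. The part of these markers in the Gja1 values was not tested.

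Of the other 5 Gja1 probe sets, 4 had changes from -0.12 to 0.04 that did not pass (limma adjusted p over probe sets 0.828 to 0.982), and 1 fell. The 4 depended on the scaling too. After quantile normalization 1415800_at, 1438945_x_at and 1438650_x_at were at -0.31, -0.46 and -0.43, and 1438973_x_at was at 0.04. None of them passed there either (limma adjusted p over probe sets 0.0786 to 0.925). Within arrays, 1438945_x_at and 1438650_x_at of the 4 were also lower relative to the brightest probe set in TNFαDes-/- hearts, by the smaller shifts of -0.18 and -0.17, without overlap between the groups (exact permutation test, two-sided, p = 0.1 for each). On these 4 and the brightest, Des-/- replicate 1 exceeded the mean of Des-/- replicates 2 and 3 by 0.75 to 1.07, against a median of 0.36 over the brightest 3639 genes and 0.03 over all genes. The remaining one, 1415801_at, read 9.97, 9.70 and 9.76 on the Des-/- arrays and 8.33, 8.81 and 8.55 on the TNFαDes-/- arrays. Here the groups did not overlap, as for 33.6% of all probe sets, and Des-/- replicate 1 was only 0.24 above its group.

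That probe set was 2.37-fold lower in TNFαDes-/- hearts (-1.25 ± 0.14 SE, limma adjusted p over probe sets = 0.0012). It was called lower under each of the 15 alternative settings run on probe sets, at -1.52 to -1.13, and at -1.47 (limma adjusted p = 0.000516) after quantile normalization. Within each array its log2 difference from the brightest Gja1 probe set was -2.60, -1.98 and -1.78 in Des-/- and -3.80, -3.03 and -3.44 in TNFαDes-/- hearts. The shift of this difference was -1.31 without overlap between the groups (exact permutation test over arrays, two-sided, p = 0.1, the smallest that 3 against 3 allows, and the same p as for the 2 smaller shifts). The platform annotation lists the falling probe set and 1415800_at, with a change of 0.04 ± 0.27, under the same transcript accession.

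**Figure D2:**
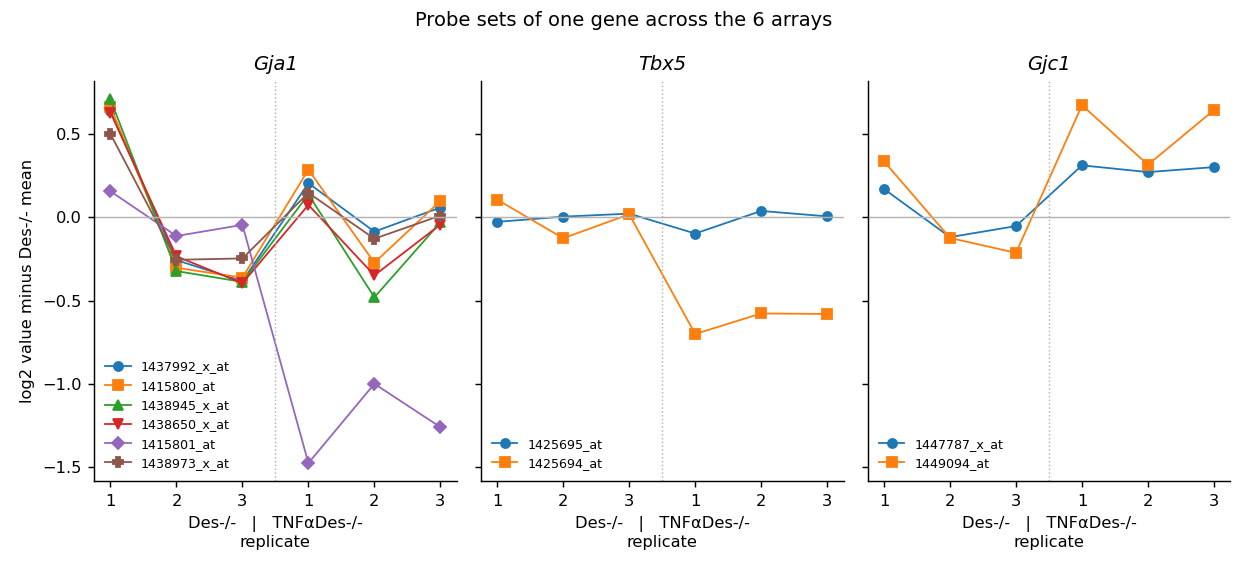
Log2 value of each probe set minus its Des-/- mean on the 6 arrays, for Gja1, Tbx5 and Gjc1; the lines only join points of 1 probe set, and replicates have no order. In Gja1 and Tbx5, 1 probe set drops on all 3 TNFαDes-/- arrays (by 1.25 and 0.62 on average) and the other Gja1 lines are highest on Des-/- replicate 1.

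Tbx5 showed the same kind of disagreement. Its brightest probe set, 1425695_at, read 7.78, 7.82 and 7.83 on the Des-/- arrays and 7.72, 7.85 and 7.82 on the TNFαDes-/- arrays. These values overlapped closely, with a change of -0.02 ± 0.09 (SE; limma adjusted p = 0.922; 95% interval -0.23 to 0.19). The other probe set, 1425694_at, which the annotation lists under the same accession, read 8.01, 7.78 and 7.92 against 7.20, 7.33 and 7.32.

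It was 1.54-fold lower in TNFαDes-/- hearts (-0.62 ± 0.10 SE, limma adjusted p over probe sets = 0.00603) and was called lower under all 15 alternative settings run on probe sets, at -0.76 to -0.57. Its log2 difference from the brightest Tbx5 probe set was 0.23, -0.04 and 0.09 in Des-/- and -0.51, -0.52 and -0.49 in TNFαDes-/- arrays, a shift of -0.60 (exact permutation test, two-sided, p = 0.1, the smallest possible). As the mean of both probe sets Tbx5 was lower by the test (-0.32 ± 0.08 SE, limma adjusted p = 0.0269). Whether Tbx5 mRNA as a whole was lower is therefore not settled by these arrays. A technical measure also differed between the groups: the log2 ratio of 3′ to 5′ control probe sets was -0.01 ± 0.03 for Gapdh in Des-/- and 0.32 ± 0.04 in TNFαDes-/- arrays (SD, n = 3), and 0.48 ± 0.08 against 0.73 ± 0.10 for Actb. Its part in the disagreement between Gja1 or Tbx5 probe sets was not tested, nor was its part in the changes of Hcn2, Scn4b or any other gene.

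Gjc1, a connexin of nodal and conduction cells, read 8.21, 7.92 and 7.99 on the Des-/- arrays and 8.35, 8.31 and 8.34 on the TNFαDes-/- arrays on its brightest probe set (1447787_x_at). The TNFαDes-/- arrays were higher without overlap, a separation that 38.0% of all genes showed in one direction or the other. The change of 0.30 ± 0.11 (SE) did not pass (limma adjusted p = 0.0835, unadjusted 95% interval 0.05 to 0.54). On the other probe set (1449094_at) Des-/- arrays read 8.03, 7.57 and 7.48 and TNFαDes-/- arrays 8.37, 8.01 and 8.34. These overlapped only through Des-/- replicate 1, and the change was 0.54 ± 0.17 (limma adjusted p over probe sets = 0.0631).

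Gjc1 passed under 4 of the 18 alternative settings run on genes, and in all 4 it was higher. These were the setting without Des-/- replicate 1 (0.38, limma adjusted p = 0.0127), array weights (0.385, adjusted p = 0.0022), the mean of both probe sets (0.42, adjusted p = 0.0429) and the setting without _a_at, _s_at and _x_at probe sets, which uses 1449094_at (0.54, adjusted p = 0.049). After quantile normalization it was 0.14 (adjusted p = 0.256).

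Gja5, a connexin of atrial muscle, of the ventricular conduction system and of arterial endothelium, read 4.61, 4.68 and 4.80 on the Des-/- arrays and 4.28, 4.42 and 4.72 on the TNFαDes-/- arrays. The groups overlapped and the change of -0.23 ± 0.13 (SE) did not pass (limma adjusted p = 0.26; 95% interval -0.52 to 0.07). All 6 values lay below the array median, at percentiles 34.3 to 45.0, so that this probe set does not show whether Gja5 was above background. It passed with array weights alone (-0.31, limma adjusted p = 0.0359).

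**Figure D3:**
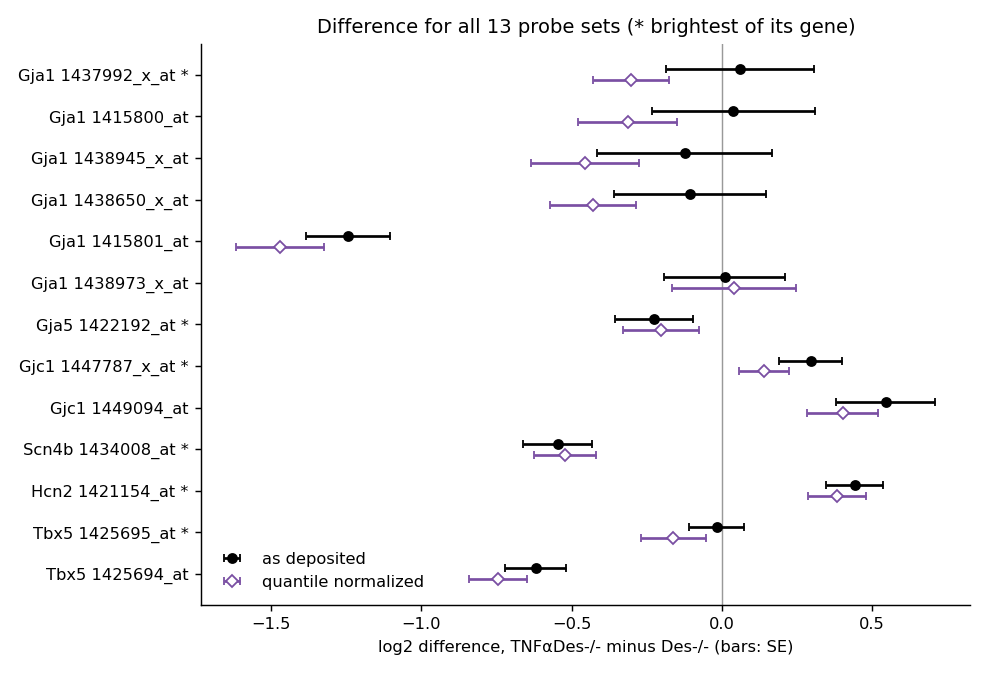
Log2 difference between TNFαDes-/- and Des-/- arrays for all 13 probe sets, as deposited (filled circles) and after quantile normalization (open diamonds), with bars of 1 SE from limma; an asterisk marks the brightest probe set of its gene. The Scn4b, Hcn2, 1415801_at and 1425694_at values keep clear of 0 under both scalings, while the brightest Gja1 probe set moves from 0.06 to -0.30.

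The cells that carry these genes were followed through their markers. Atrial muscle markers (Myl7, Myl4, Sln, Bmp10, Nr2f1 and Nr2f2) gave 0 calls of 6 as deposited (limma; 3 at an unadjusted p under 0.05), with mean log2 levels of 9.37 to 9.76 in Des-/- and 9.25 to 9.35 in TNFαDes-/- arrays, and 4 of 6 were called lower after quantile normalization, Myl7 by -0.79. Ventricular muscle markers gave 0 calls of 4 under both scalings (limma; 1 at an unadjusted p under 0.05 as deposited), at levels of 9.71 to 10.24 and 10.02 to 10.16, with Hey2 below the median of each array, and 2 higher without Des-/- replicate 1. Markers of the ventricular conduction system gave 2 higher, Kcne1 (4.58) and Irx3 (1.49), and 1 lower, Cpne5 (-0.78), of 4, whereas Cntn2, a marker of Purkinje cells, was at -0.14 ± 0.10 (SE; limma adjusted p = 0.367). The mean level of these 4 was 6.55 to 6.75 in Des-/- and 7.90 to 7.995 in TNFαDes-/- arrays. That difference mostly follows Kcne1 and does not stand for the 4 markers alike. Endothelial markers gave 3 lower of 6 (Pecam1 -0.42, Tie1 -0.57 and Tek -0.49), at levels of 8.53 to 8.90 against 8.32 to 8.34, with 4 lower after quantile normalization, 5 with cyclic loess and 1 without TNFαDes-/- replicate 1.

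Markers of arterial endothelium gave 2 lower of 5 (Efnb2 -0.76 and Dll4 -0.83), at 7.16 to 7.65 against 6.90 to 7.04, while Sox17 (0.48 ± 0.16 SE, limma adjusted p = 0.0626) and Gja4 (0.18 ± 0.11, adjusted p = 0.303) stood on the other side of 0 and did not pass. The counts were 1 higher and 3 lower without Des-/- replicate 1, 3 lower after quantile normalization and 1 lower without TNFαDes-/- replicate 1. Smooth muscle and pericyte markers gave 1 higher and 1 lower of 5 (9.51 to 10.02 against 9.95 to 9.97), with 1 and 2 after quantile normalization and 1 and 0 without TNFαDes-/- replicate 3. Fibroblast markers gave 1 higher and 0 lower of 6 (10.48 to 11.06 against 10.85 to 10.94), but 1 and 3 after quantile normalization, where the median turned from 0.12 to -0.15, and 3 and 0 without Des-/- replicate 1. Macrophage markers gave 4 higher and 1 lower of 5 (8.84 to 9.32 against 9.25 to 9.34), also after quantile normalization, with 1 higher without TNFαDes-/- replicate 1 or 3 and 2 higher without Des-/- replicate 2 or 3. Adipocyte markers gave 2 lower of 2 measured (7.15 to 7.53 against 6.27 to 6.44). Of the Schwann cell markers 1 was measured, Sox10, which did not pass (6.05 to 6.67 against 5.75 to 6.30). Fewer cells of a type and less RNA per cell cannot be told apart in heart tissue. The part of these markers in the changes of Hcn2, Scn4b and the falling Gja1 and Tbx5 probe sets was not tested.

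**Figure D4:**
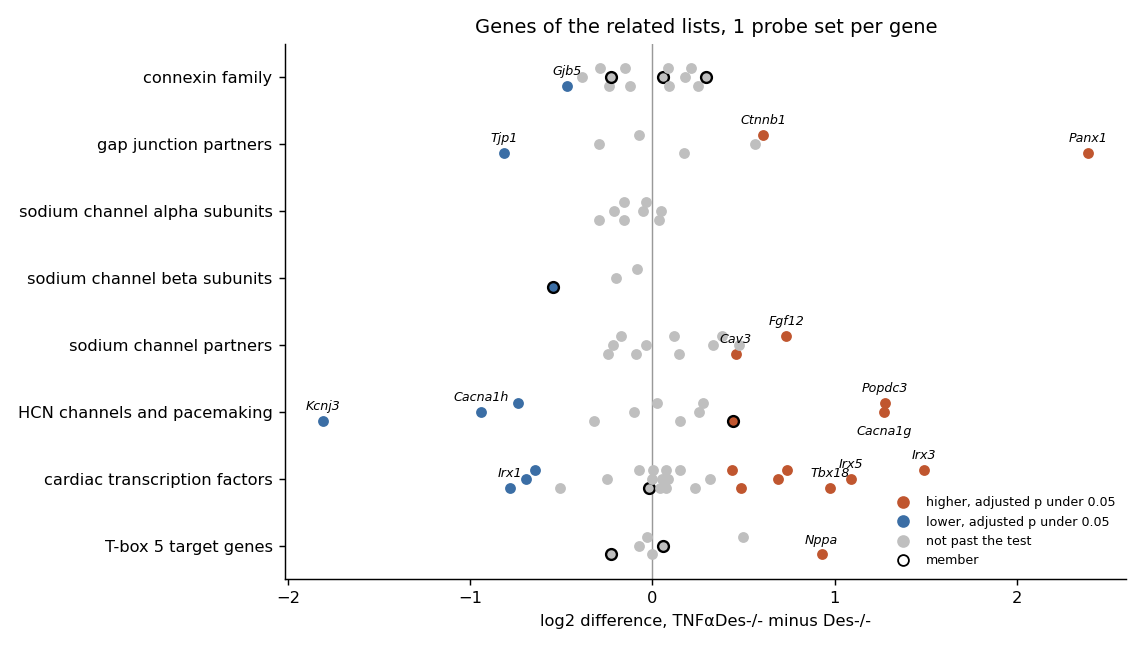
Log2 difference between TNFαDes-/- and Des-/- arrays for every measured gene of the related lists, 1 probe set per gene; red points passed the test as higher, blue as lower, grey did not pass, and a black ring marks a member. The pacemaking list spreads from Kcnj3 at -1.81 to Popdc3 at 1.28, while the sodium channel subunits other than Scn4b lie within 0.30 of 0.

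Connexins as a family were called in 1 case of the 14 measured, Gjb5 (-0.47 ± 0.14 SE, limma adjusted p = 0.0447), a connexin of skin whose probe set lay below the array median on every array. Of the 14, 8 were below the median on all arrays, the family's median change was -0.03, and without Des-/- replicate 1 the calls were 2 higher and 3 lower. The Gjb5 call was lost without Des-/- replicate 2, Des-/- replicate 3, TNFαDes-/- replicate 1 or TNFαDes-/- replicate 3 (limma adjusted p of 0.137 to 0.164). Among 7 measured partners of gap junctions, Panx1, Tjp1 and Ctnnb1 were called. Panx1, which encodes a large-pore membrane channel related in topology to connexins, rose from 6.31 ± 0.17 to 8.70 ± 0.02 (SD, n = 3), a 5.25-fold difference on its single probe set (2.39 ± 0.11 SE, limma adjusted p = 5.93e-06).

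Tjp1, the scaffold protein of tight junctions that binds the tail of the Gja1 protein, fell by 0.81 on the log2 scale (SE 0.21; adjusted p = 0.0241 by limma; -1.06 after quantile normalization). Its call was lost without any 1 of the 3 TNFαDes-/- arrays (limma adjusted p of 0.0569 to 0.0692). Ctnnb1, which encodes the adherens junction protein beta-catenin, was called on its brightest probe set (0.61 ± 0.17), but its other probe sets gave 0.07 and -0.52, so its direction is not settled. After quantile normalization that call ended (0.23, limma adjusted p = 0.0638), and it ended also without any 1 array other than Des-/- replicate 1 (adjusted p of 0.0628 to 0.118).

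Sodium channel alpha subunits gave 0 calls of 8 measured (limma, and 0 at an unadjusted p under 0.05; 7 of the 8 below the median on all arrays; median change -0.10). The beta subunits Scn2b and Scn3b were at -0.09 ± 0.12 and -0.20 ± 0.12 (SE) beside the fall of Scn4b, and neither passed (limma adjusted p = 0.662 and 0.298). Of 12 measured partners of the sodium channel 2 were called higher and 0 lower as deposited (median 0.13). After quantile normalization 2 were called higher and 2 lower, Rangrf (-0.48, limma adjusted p = 0.00784) and the ankyrin gene Ank2 (-0.42, adjusted p = 0.0126), at a median of -0.04, and without Des-/- replicate 1 the counts were 6 higher and 1 lower. Rangrf and Ank2 were chosen after their values were seen. Fgf12, a factor that binds the channel's tail, was higher by 0.74 ± 0.12 on its brightest probe set (limma adjusted p = 0.00425), though its others gave 0.25 and 0.12, and the mean of all did not pass (0.37, adjusted p = 0.0936). Cav3, the caveolin of muscle, was higher by 0.46 ± 0.10 (limma adjusted p = 0.0145). That call ended with cyclic loess (0.24, adjusted p = 0.054) and without any 1 of Des-/- replicates 2 and 3 and TNFαDes-/- replicates 1 and 3 (0.42 to 0.44, adjusted p of 0.0622 to 0.0672).

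HCN channels and other genes of pacemaking moved both ways: 3 of 12 rose, Hcn2 included, and 3 fell, with a median of 0.09. The T-type calcium channel genes were opposed, Cacna1g rising from 7.23 ± 0.12 to 8.50 ± 0.09 (SD, n = 3; 1.27 ± 0.11 SE, limma adjusted p = 0.000153) and Cacna1h falling from 6.26 ± 0.05 to 5.33 ± 0.26 (-0.94 ± 0.14, adjusted p = 0.00224). The call of Cacna1h rests on an _a_at probe set, and its other probe set gave 0.28 and did not pass. Kcnj3, a subunit of the acetylcholine-gated potassium channel of atrial and nodal cells, was lower by the test (-1.81 ± 0.13, limma adjusted p = 8.61e-05), and its other probe sets gave -1.54, -2.61 and, on a dim one, -0.03. Popdc3, of the Popeye family of membrane proteins that bind cyclic AMP, rose by 1.28 ± 0.22 (limma adjusted p = 0.005). Hcn3 was at -0.32 ± 0.15 and did not pass (limma adjusted p = 0.182).

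Of 24 measured cardiac transcription factors, Tbx5 among them, 7 were called higher and 3 lower (median 0.07), and 6 and 5 after quantile normalization. Without TNFαDes-/- replicate 1 or 3 the counts were 4 and 3. The largest changes were those of the Iroquois factors Irx3 (1.49 ± 0.13 SE, limma adjusted p = 0.000188), which shapes fast conduction in the ventricle, Irx5 (1.09 ± 0.12, adjusted p = 0.000575) and Irx1 (-0.78 ± 0.15, adjusted p = 0.00774), and of Tbx18, a T-box factor of the sinus node and epicardium (0.98 ± 0.21, adjusted p = 0.012). Tbx18 was lost without TNFαDes-/- replicate 1 or 3 (limma adjusted p = 0.0508 and 0.0506), and its other probe set, at 0.23, did not pass. Of 7 measured genes known as targets of Tbx5, 1 rose and 0 fell, with a median of 0.00 that was -0.20 after quantile normalization. The riser was Nppa, the atrial natriuretic peptide (0.93 ± 0.16, limma adjusted p = 0.00473, or 0.0607 with an intensity trend; 0.43 after quantile normalization), whose TNFαDes-/- mean of 15.03 is at the top of those arrays. Without Des-/- replicate 1 the targets gave 3 rises.

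Genes with the profile most like that of each called member were found by the root mean square difference of centred log2 values over the 6 arrays, among genes brighter than the median gene. For Hcn2 these were Dda1, of a cullin ubiquitin ligase, at 0.032 (change 0.42) and Yipf3, a Golgi membrane protein, at 0.033 (0.47). For Scn4b they were Rtn4ip1, a mitochondrial oxidoreductase, at 0.045 (-0.51) and Slc39a3, a zinc transporter, at 0.062 (-0.53). With 6 arrays in 2 groups, this likeness mostly restates a group difference of the same size.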

How the data were processed

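RMA output on the log2 scale is what the deposited table holds for the 6 one-colour arrays, per the submitters' processing notes; its version and the arrays it was run over are not stated there. Of 45101 probe sets, 64 are controls, 34945 have 1 gene symbol in the platform annotation, 932 several and 9160 none. The brightest probe set by mean over the 6 arrays represents each of 18193 genes. For the comparison, lmFit and eBayes of limma 3.58.1 (R 4.3.3) were run on all genes, and separately on all 45037 non-control probe sets, with a threshold of 0.05 after Benjamini-Hochberg adjustment. The fit was tested on simulated data. The members and lists were chosen with earlier results of these data known. Named beyond the members were up to 4 called genes per related list by size of change, the 2 most similar profiles per called member, and markers. Alternatives covered scaling, variance model, array weights, replicate block, dim filter, probe set rule and arrays left out. The number of arrays limits the precision, and the table holds no detection calls. Figures were drawn with matplotlib 3.10.9.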

Additional observations from a re-analysis of the deposited data

How the results depend on the processing

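Against 3869 genes, 2 members, 4 member probe sets and 24 of 84 genes of the related lists called as deposited, array weights called 8414 genes, 5 members and 47 list genes. Leaving out 1 array at a time gave 2068 to 5814 genes, 1 to 4 members, 2 to 6 member probe sets and 16 to 39 list genes, with the highest counts without Des-/- replicate 1. Without Des-/- replicates 2 and 3 together these were 1587, 0, 2 and 13 (limma). The filter on dim probe sets left 4 members, of which 1, Hcn2, was called, beside 3827 of 11735 genes. Scn4b and Gja5 were removed by it. The mean of all probe sets called 4 members, adding Gjc1 and Tbx5, beside 3603 of 18193 genes. Scaling alone (quantile, median centring, cyclic loess) left 2 members called, beside 3788 to 4140 genes.

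The sign of Gja1 turned under 8 of 18 alternatives: quantile normalization (-0.30), cyclic loess (-0.32), the mean of all probe sets (-0.23), and without Des-/- replicate 2 (-0.07), Des-/- replicate 3 (-0.13), TNFαDes-/- replicate 1 (-0.01), Des-/- replicates 2 and 3 (-0.58), or Des-/- replicate 1 with quantile normalization (-0.18). That of Tbx5, near 0, turned under median centring (0.0028) and without TNFαDes-/- replicate 1 (0.0225) or Des-/- replicates 2 and 3 (0.0097). With 1 array left out at a time Gja1 ranged from -0.13 to 0.38 and Tbx5 from -0.045 to 0.0225. The cause was not tested. Hcn2 stayed within 0.36 to 0.48 and was called under 15 of 18 alternatives, Scn4b within -0.64 to -0.47 and called under 14 of 17.

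Deviations from the group means correlated at 0.25, 0.31 and -0.30 between arrays of the same replicate number, so the numbers are not shown to pair arrays. With the replicate number as a block, 4278 genes, 2 members, 5 member probe sets and 27 list genes were called.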
